A study of Rattus norvegicus with 18 samples.

Results

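The genes described here encode the proteins of the synaptic vesicle cycle and of the scaffold beneath synapses. The set was given as a list of 46 gene symbols, from synapsins and SNARE proteins to the Dlg, Shank and Homer scaffolds, and each gene was represented by its brightest probe. Of the 46 genes, 41 had a probe named for them, with 66 probes in all, and all 41 passed the filter on missing values, among 12331 named genes and 33800 probes tested. Syt1, Sv2c, Unc13a, Dlg2 and Doc2a had no probe named for them and were not analysed here.

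A nerve terminal stores transmitter in vesicles, which are held in reserve by synapsins, docked at the active zone by Rim, Bassoon and Piccolo, and fused with the membrane when SNARE proteins of vesicle and plasma membrane zip together under the control of synaptotagmins and complexins. Across the cleft, neuroligins bind neurexins, and layers of scaffold proteins (Dlg, Dlgap, Shank and Homer) anchor glutamate receptors, while gephyrin anchors inhibitory receptors. In the hippocampus these genes are expressed mainly by neurons, and most of the synapses they serve are glutamatergic.

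RNA came from the hippocampus of adult male Wistar rats, 1 array per sample, on CodeLink rat whole genome arrays. Rats of the D3, D7 and Chronic groups received pilocarpine, a cholinergic agonist, after scopolamine methylnitrate, which spares the periphery, and went into status epilepticus (SE), which was ended with diazepam. Tissue was taken on day 3 (D3, n = 5) or day 7 (D7, n = 5) from SE, or soon after the first spontaneous seizure (Chronic, n = 5). Control rats received saline only, so pilocarpine, scopolamine, SE and diazepam cannot be told apart in any comparison with Control. The 3 Control arrays used here were 1 of day 3 (replicate 26), 1 of day 7 (replicate 36) and 1 matched to Chronic (replicate 47). These 3 arrays of different times stood as 1 group, every comparison with Control shares them, and age and time within Control cannot be told apart from the spread between rats.

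Values are normalized intensities, in which the signal of a spot above its surroundings was scaled by 1 constant for each array and a value near 1 is an average probe. Each array flagged between 66.0% and 76.0% of its spots as good, and the mean correlation of an array with the others of its group was 0.952 to 0.968, lowest for D7 replicate 33. That array also had the lowest mean of the synaptic genes and the highest mean of microglial markers. Log2 fold changes are given with their standard errors from a limma fit over all 4 groups, with p-values adjusted over all 33800 probes by the method of Benjamini and Hochberg. A gene is said to have fallen or risen where the adjusted p was under 0.05, and to have been called where it also differed at least 2-fold.

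Most of these genes were lower after SE, by less than 2-fold in nearly every case. At D3, 25 of 41 genes fell (61.0%, against 14.2% of all probes and 16.5% of named genes at their brightest probe). Dlg3, 1 of them, was called lower (1.17% of all probes were). At D7, 21 fell (51.2%, against 11.9% of all probes and 15.5% of named genes), and in Chronic 20 fell (48.8%, against 9.8% and 12.7%). None was called lower at D7 or in Chronic, where 0.432% and 0.612% of all probes were, and without the fold limit the counts at an unadjusted p under 0.05 were 29 and 28 genes. No gene of the set rose against Control at any time by limma, at adjusted or unadjusted p under 0.05, nor by the methods' t-test after adjustment, while 7.91% of all probes rose at D3, 6.2% at D7 and 4.86% in the Chronic group, of which 3.42%, 3.06% and 2.28% were called higher.

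Over the 41 genes the median log2 fold change was -0.54 (D3), -0.49 (D7) and -0.42 (Chronic), beside medians of -0.12, -0.06 and -0.08 over all probes. Over all named genes, each at its brightest probe, the medians were -0.10, -0.12 and -0.12. The log2 fold change was below 0 for 39, 40 and 41 genes at the 3 times, with a range of -1.04 to 0.44, -0.85 to 0.15 and -0.84 to -0.05. It was below 0 for 60.3%, 55.4% and 57.6% of all probes, and for 59.3%, 61.1% and 62.5% of named genes. The upper ends at D3 and D7 were those of Snap25, whose probe was near background and does not give a usable fold. In Chronic, Snap25 is counted among the 41 genes below 0. Every array lay below every Control array for 28 genes at D3 (22.7% of all probes), 25 at D7 (16.8%) and 22 in Chronic (16.4%). None had every array above Control at any of the 3 times (10.9%, 7.88% and 6.94% of all probes). These probes were brighter than most, with a median of 3.73 on the log2 scale against -0.02 over all probes. Among the 10025 probes at least as bright as the lower quartile of the set, 28.6% fell at D3, 26.5% at D7 and 22.7% in the Chronic group, with median log2 fold changes of -0.20, -0.23 and -0.22.

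**Figure D1:**
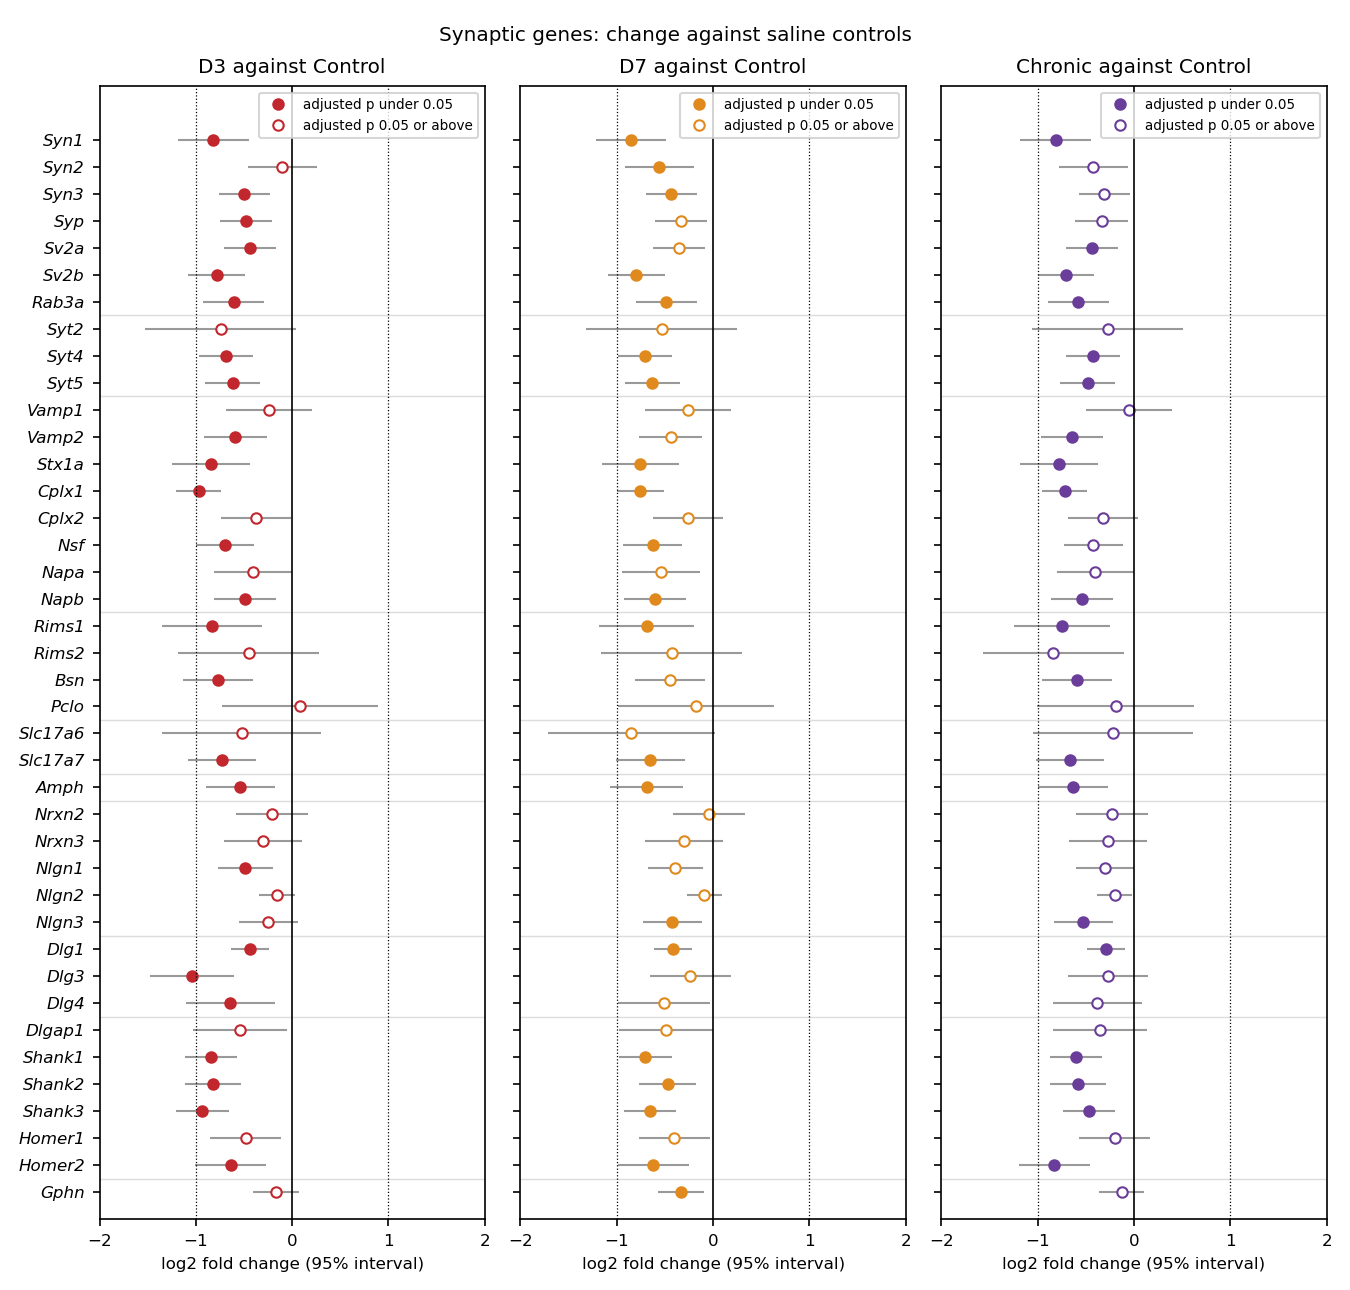
Log2 fold change against Control (x axis, with the 95% interval as a line) of 40 synaptic genes (rows, in order of role) at D3, D7 and in Chronic. Filled points have an adjusted p under 0.05, open points do not, and dotted lines mark 2-fold. Snap25 is left out because its probe was near background. Nearly all points lie left of 0, and only Dlg3 at D3 lies beyond 2-fold.

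The 250 bases before the start of transcription are shown for the 3 genes of the set that fell at 2 or more times and hold the letters GCGGGGGCG, the binding sequence of the Egr family of zinc finger factors, on either strand. The letters of this motif, or its reverse complement, stand in capitals. The sequences are from RefSeq, assembly GRCr8, 5′ to 3′ in the direction of the gene.
Syn1 (chrX:3725495-3725744, gene on the plus strand): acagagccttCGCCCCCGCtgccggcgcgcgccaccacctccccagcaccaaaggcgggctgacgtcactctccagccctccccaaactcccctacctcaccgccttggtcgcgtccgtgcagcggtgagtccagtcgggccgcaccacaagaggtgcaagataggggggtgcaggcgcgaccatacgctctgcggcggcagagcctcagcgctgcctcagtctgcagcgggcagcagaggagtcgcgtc
Vamp2 (chr10:54292539-54292788, gene on the plus strand): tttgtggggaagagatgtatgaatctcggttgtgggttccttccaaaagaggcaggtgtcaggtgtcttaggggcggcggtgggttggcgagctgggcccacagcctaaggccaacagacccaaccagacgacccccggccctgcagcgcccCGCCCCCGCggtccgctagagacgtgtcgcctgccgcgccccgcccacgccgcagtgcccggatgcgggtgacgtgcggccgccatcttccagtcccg
Nsf (chr10:89357384-89357633, gene on the minus strand): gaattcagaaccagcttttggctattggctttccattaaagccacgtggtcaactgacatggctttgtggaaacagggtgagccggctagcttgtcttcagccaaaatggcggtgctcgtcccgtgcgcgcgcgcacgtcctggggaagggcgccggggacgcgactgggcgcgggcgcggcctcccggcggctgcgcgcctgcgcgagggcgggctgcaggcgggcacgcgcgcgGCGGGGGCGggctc
RefSeq start regions were matched by symbol for 31 of the 41 genes. In these, GCGGGGGCG was present for 5 genes (16.1%: Nsf, Syn1, Syn2, Syp and Vamp2), against 2.45% of 33469 start regions of all genes, with both strands searched. GGGCGG, the GC box, was present for 17 genes (54.8%, against 30.5%), and may overlap the first motif, as it does before Nsf. TGACGTCA, the full cyclic AMP response element, was present for Napa, Syn1 and Vamp1 (9.68%, against 1.59%). GCGTGGGCG, another Egr form, was present only for Vamp2 (3.23%, against 0.478%), and TTCAGCACC, one arm of the element bound by the neuronal repressor REST, was in none of the 31, against 0.305% of all. The median GC content was 64% for these genes and 51.2% for all start regions. These matches are a description of the letters, and no binding was measured.

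Among the synapsins and vesicle membrane proteins, 6 of 7 genes fell at D3, 5 at D7 and 4 in Chronic. Values per array are given in the order of the replicate numbers, 11 to 15 at D3, 31 to 35 at D7, 41 to 45 in Chronic and 26, 36 and 47 in Control. Syn1, which ties vesicles to the cytoskeleton of the terminal, read 24.0, 31.6, 32.3, 28.6 and 26.8 at D3, 24.7, 26.7, 19.3, 39.0 and 33.6 at D7, 22.3, 31.1, 29.1, 33.1 and 28.4 in Chronic, against 50.4, 53.8 and 46.8 in Control. No pilocarpine array reached the lowest Control array. The log2 fold change of Syn1 was -0.82 ± 0.18 at D3 (adjusted p = 0.00277), -0.85 ± 0.18 at D7 (adjusted p = 0.00371) and -0.81 ± 0.18 in Chronic (adjusted p = 0.00594), or 1.76-fold, 1.81-fold and 1.76-fold lower, and each passed with any 1 of the 18 arrays left out.

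Sv2b, a glycoprotein of the vesicle membrane, read 24.9, 32.9, 26.4, 24.5 and 27.6 at D3, 28.0, 32.2, 19.1, 28.8 and 28.3 at D7, 24.5, 31.2, 31.1, 27.9 and 29.0 in Chronic, against 44.8, 49.7 and 45.5 in Control. No pilocarpine array reached the Control arrays, and D7 replicate 33 was the lowest array. Against Control the log2 fold change was -0.78 ± 0.14 at D3 (adjusted p = 0.000738), -0.80 ± 0.14 at D7 (adjusted p = 0.00128) and -0.70 ± 0.14 in Chronic (adjusted p = 0.00366), and each fall passed with any 1 array left out. Its relative Sv2a, the binding site of the anti-seizure drug levetiracetam, spanned 46.1 to 50.6 at D3, 38.6 to 60.0 at D7, 44.5 to 53.9 in Chronic and 60.3 to 74.3 in Control. Sv2a fell at D3 and in Chronic, with log2 fold changes of -0.44 ± 0.13 at D3 (adjusted p = 0.0196), -0.36 ± 0.13 at D7 (adjusted p = 0.0628) and -0.44 ± 0.13 in Chronic (adjusted p = 0.0299). The fall of Sv2a was lost at D3 without Control replicate 36 (adjusted p up to 0.122), and for Chronic without Chronic replicate 44 or 45 or Control replicate 26 or 36 (adjusted p up to 0.163).

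Rab3a, the small GTPase that guides vesicles to release sites, read 52.0, 66.8, 62.5, 50.7 and 58.4 at D3, 58.8, 73.8, 47.1, 67.9 and 70.5 at D7, 50.9, 73.2, 55.9, 62.4 and 54.7 in Chronic, against 94.9, 94.9 and 75.7 in Control. All pilocarpine arrays were below all Control arrays, with Control replicate 47 the lowest of the controls. The fit gave log2 fold changes of -0.61 ± 0.15 at D3 (adjusted p = 0.00709), -0.49 ± 0.15 at D7 (adjusted p = 0.0312) and -0.58 ± 0.15 in Chronic (adjusted p = 0.0159). The fall at D3 passed with any array left out, but that at D7 was lost without D7 replicate 31 or 33 or Control replicate 26 or 36 (adjusted p up to 0.127) and that in Chronic without Control replicate 26 or 36 (adjusted p up to 0.0800).

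Syp, synaptophysin, a marker of vesicles, spanned 53.3 to 65.3 at D3, 53.3 to 78.4 at D7, 52.2 to 74.0 in Chronic and 72.0 to 87.5 in Control. It fell at D3, with log2 fold changes of -0.48 ± 0.13 at D3 (adjusted p = 0.0123), -0.33 ± 0.13 at D7 (adjusted p = 0.0803) and -0.34 ± 0.13 in Chronic (adjusted p = 0.0860), and lost this without Control replicate 26 or 36 (adjusted p up to 0.0670). Syn3 fell at D3 and D7, with log2 fold changes of -0.50 ± 0.13 at D3 (adjusted p = 0.00842), -0.44 ± 0.13 at D7 (adjusted p = 0.0237) and -0.31 ± 0.13 in Chronic (adjusted p = 0.108), and lost both falls without Control replicate 47, with D7 replicate 33 also needed at D7 (adjusted p up to 0.0708 at D3 and 0.143 at D7). Syn2 had log2 fold changes of -0.10 ± 0.17 at D3 (adjusted p = 0.726), -0.56 ± 0.17 at D7 (adjusted p = 0.0290) and -0.42 ± 0.17 in Chronic (adjusted p = 0.102), a fall at D7 alone that was lost without D7 replicate 33 or Control replicate 26 or 36 (adjusted p up to 0.127). The difference of Syn2 between D7 and D3 itself, -0.46 ± 0.15 (adjusted p = 0.170), did not pass the test.

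**Figure D2:**
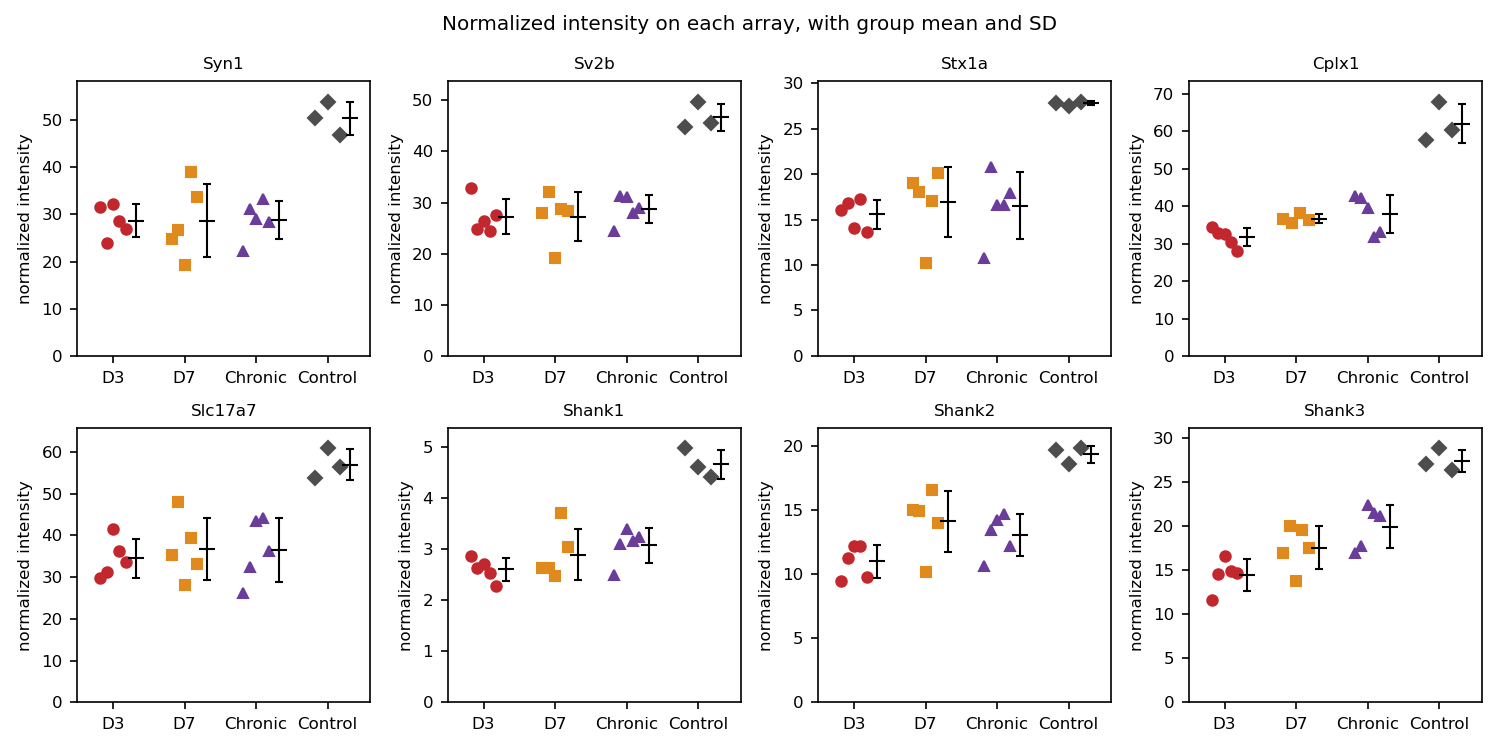
Normalized intensity (y axis, from 0) on each array of D3, D7, Chronic and Control for 8 synaptic genes, with the group mean and SD beside the points. For each of the 8 genes, every pilocarpine array lies below every Control array.

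Of the synaptotagmins, the calcium-binding proteins of the vesicle, Syt4 and Syt5 fell at all 3 times and Syt2 did not pass the test. Syt4, an atypical isoform, read 24.5, 25.5, 25.7, 29.7 and 24.4 at D3, 26.6, 29.5, 19.3, 27.8 and 26.1 at D7, 26.8, 30.7, 30.4, 31.5 and 37.5 in Chronic, against 45.6, 45.2 and 35.5 in Control. At D3 and D7 no array reached the Control arrays, while Chronic replicate 45 lay above Control replicate 47. This came to log2 fold changes of -0.69 ± 0.13 at D3 (adjusted p = 0.00143), -0.71 ± 0.13 at D7 (adjusted p = 0.00213) and -0.42 ± 0.13 in Chronic (adjusted p = 0.0405). The falls at D3 and D7 passed with any array left out, and that in Chronic was lost without Chronic replicate 41, 42, 43 or 44 or Control replicate 26 or 36 (adjusted p up to 0.172). A dimmer Syt4 probe, singled out after its values were seen, overlapped with Control at each time. At D3 it spanned 12.9 to 15.2, against 12.7 to 18.3 in Control. As the mean of its probes, Syt4 fell at D3 and D7 but not in Chronic.

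Syt5 read 35.9, 42.3, 35, 36.6 and 33.6 at D3, 39.9, 36.9, 25.7, 43.2 and 38.1 at D7, 38.5, 40.3, 38.2, 36.5 and 48.5 in Chronic, against 55.5, 58.0 and 54.7 in Control, with no overlap between pilocarpine and Control arrays. Relative to Control, log2 fold changes were -0.62 ± 0.14 at D3 (adjusted p = 0.00354), -0.63 ± 0.14 at D7 (adjusted p = 0.00509) and -0.48 ± 0.14 in Chronic (adjusted p = 0.0250). Leaving out any 1 of the 3 Control arrays ended the fall in Chronic (adjusted p up to 0.0944), and no array ended those at D3 and D7. Syt2, the fast calcium sensor of the hindbrain and of some interneurons, was dim, with 0.707, 0.205, 0.387, 0.386 and 0.333 at D3, 0.675, 0.421, 0.291, 0.617 and 0.292 at D7, 0.738, 0.860, 0.459, 0.299 and 0.426 in Chronic, against 0.567, 0.657 and 0.654 in Control. Of these spots, 5 pilocarpine spots carried the low signal flag, and the groups overlapped. The log2 fold change was -0.74 ± 0.38 at D3 (adjusted p = 0.170), -0.53 ± 0.38 at D7 (adjusted p = 0.349) and -0.27 ± 0.38 in Chronic (adjusted p = 0.687).

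SNARE proteins and the factors that clamp or disassemble them held the gene with the smallest adjusted p of the set. Of 9 genes, 5 fell at D3, 4 at D7 and 4 in Chronic. Cplx1, complexin, which binds the assembled SNARE complex and holds it ready for calcium, read 33, 34.4, 32.6, 30.4 and 28.2 at D3, 36.6, 35.5, 38.3 and 36.4 at D7, 42.7, 42.2, 39.6, 31.8 and 33.1 in Chronic, against 57.8, 67.9 and 60.5 in Control, with D7 replicate 33 removed by its flag. Means were 31.7 ± 2.45 at D3, 36.7 ± 1.19 at D7 and 37.9 ± 5.13 in Chronic, against 62.1 ± 5.26 in Control (SD; n = 5, 4, 5 and 3). Against Control the log2 fold change was -0.97 ± 0.11 at D3 (adjusted p = 2.26e-05), -0.76 ± 0.12 at D7 (adjusted p = 0.000548) and -0.72 ± 0.11 in Chronic (adjusted p = 0.000866), just short of 2-fold at D3 (1.96-fold lower), and each fall passed with any array left out. Cplx2, its relative, had log2 fold changes of -0.37 ± 0.17 at D3 (adjusted p = 0.138), -0.26 ± 0.17 at D7 (adjusted p = 0.321) and -0.32 ± 0.17 in Chronic (adjusted p = 0.237).

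Stx1a, the plasma membrane SNARE syntaxin, read 16.8, 16.1, 14.1, 17.3 and 13.7 at D3, 19.1, 18.1, 10.3, 17.1 and 20.1 at D7, 10.8, 20.8, 16.6, 16.6 and 17.9 in Chronic, against 27.9, 27.6 and 28.0 in Control. The 3 Control arrays were within a narrow band and every pilocarpine array was below it, lowest in D7 replicate 33 and Chronic replicate 41. The fit gave log2 fold changes of -0.84 ± 0.19 at D3 (adjusted p = 0.00431), -0.75 ± 0.19 at D7 (adjusted p = 0.0125) and -0.78 ± 0.19 in Chronic (adjusted p = 0.0123), and each fall passed with any array left out. Vamp2, the vesicle SNARE synaptobrevin, spanned 28.0 to 34.2 at D3, 26.3 to 42.2 at D7, 21.2 to 36.4 in Chronic and 45.2 to 48.6 in Control. It fell at D3 and in Chronic with any array left out, with log2 fold changes of -0.59 ± 0.16 at D3 (adjusted p = 0.0103), -0.44 ± 0.16 at D7 (adjusted p = 0.0549) and -0.64 ± 0.16 in Chronic (adjusted p = 0.0110), and Vamp1 had log2 fold changes of -0.24 ± 0.21 at D3 (adjusted p = 0.464), -0.26 ± 0.21 at D7 (adjusted p = 0.434) and -0.05 ± 0.21 in Chronic (adjusted p = 0.907).

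Nsf, the ATPase that pulls used SNARE complexes apart, spanned 41.4 to 55.2 at D3, 37.8 to 62.9 at D7, 53.5 to 63.8 in Chronic and 70.1 to 94.0 in Control. This came to log2 fold changes of -0.70 ± 0.15 at D3 (adjusted p = 0.00234), -0.63 ± 0.15 at D7 (adjusted p = 0.00760) and -0.42 ± 0.15 in Chronic (adjusted p = 0.0583), and the fall at D7 was lost without Control replicate 36 (adjusted p up to 0.0578). Napb, a brain form of the adaptor that brings Nsf to SNARE complexes, read 59.0, 56.6, 60.0, 57.0 and 47.3 at D3, 53.6, 65.2, 38.1, 51.1 and 54.5 at D7, 41.1, 49.1, 60.8, 61.8 and 59.9 in Chronic, against 76.7, 80.3 and 78.3 in Control. All pilocarpine arrays lay below Control, with log2 fold changes of -0.49 ± 0.15 at D3 (adjusted p = 0.0259), -0.60 ± 0.15 at D7 (adjusted p = 0.0121) and -0.54 ± 0.15 in Chronic (adjusted p = 0.0234). These falls were lost at D3 without D3 replicate 15 or Control replicate 26, 36 or 47 (adjusted p up to 0.0854), at D7 without Control replicate 36 (adjusted p up to 0.0517), and for Chronic without Chronic replicate 41 or Control replicate 26, 36 or 47 (adjusted p up to 0.0852). Napa, the widely expressed form, had log2 fold changes of -0.41 ± 0.19 at D3 (adjusted p = 0.141), -0.54 ± 0.19 at D7 (adjusted p = 0.0559) and -0.40 ± 0.19 in Chronic (adjusted p = 0.170). Snap25, the third SNARE of the release complex, had only a probe near background: it was flagged good on 1 of 18 arrays, D3 replicate 15, and low on all 3 Control arrays, at 0.130, 0.124 and 0.167, so no fold is given.

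At the active zone, Rims1, a scaffold that recruits calcium channels to docked vesicles, read 1.24, 1.44, 1.55 and 1.40 at D3, 1.48, 2.03, 1.07, 2.17 and 1.28 at D7, 0.911, 1.31, 1.96, 1.61 and 1.98 in Chronic, against 2.54, 2.50 and 2.47 in Control, with D3 replicate 13 removed by its flag. No pilocarpine array overlapped with Control. Relative to Control, log2 fold changes were -0.84 ± 0.25 at D3 (adjusted p = 0.0209), -0.69 ± 0.24 at D7 (adjusted p = 0.0497) and -0.75 ± 0.24 in Chronic (adjusted p = 0.0409), but each fall was lost with any 1 Control array left out. It was also lost at D3 without D3 replicate 11 (adjusted p = 0.0522, and up to 0.0662 without a Control array), and for Chronic without D3 replicate 15, Chronic replicate 41 or 42 or Control replicate 26, 36 or 47 (adjusted p up to 0.119). The fall at D7 held only 5 times of 18, when D7 replicate 32 or 34 or Chronic replicate 41, 43 or 45 was the array left out (adjusted p up to 0.130 otherwise).

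Bsn, Bassoon, a giant protein of the active zone matrix, spanned 27.6 to 36.2 at D3, 31 to 48.8 at D7, 24.0 to 46.5 in Chronic and 52.4 to 57.9 in Control. It fell at D3 with any array left out and in Chronic, with log2 fold changes of -0.77 ± 0.17 at D3 (adjusted p = 0.00379), -0.45 ± 0.17 at D7 (adjusted p = 0.0793) and -0.59 ± 0.17 in Chronic (adjusted p = 0.0285), and the fall in Chronic was lost without Chronic replicate 41 or Control replicate 26, 36 or 47 (adjusted p up to 0.0976). A dimmer Bsn probe, singled out after its values were seen, overlapped with Control at each time. It spanned 0.407 to 0.623 at D3, 0.569 to 0.860 at D7, 0.648 to 0.950 in Chronic and 0.615 to 0.743 in Control. The other dimmer Bsn probes lay below Control on every pilocarpine array. As the mean of its probes, Bsn fell at D3 but not in Chronic. Rims2 read 0.281, 0.681, 0.521, 0.582 and 0.649 at D3, 0.525, 0.741, 0.268, 0.732 and 0.534 at D7, 0.262, 0.247, 0.571, 0.542 and 0.496 in Chronic, against 0.720, 0.761 and 0.653 in Control. The Chronic and Control arrays did not overlap, but the spread was wide, 2 Chronic spots were flagged low, and the log2 fold changes of -0.45 ± 0.35 at D3 (adjusted p = 0.398), -0.43 ± 0.35 at D7 (adjusted p = 0.430) and -0.84 ± 0.35 in Chronic (adjusted p = 0.115) did not pass the test. Pclo, Piccolo, was dim, between 0.141 and 0.559 over all arrays, with log2 fold changes of 0.08 ± 0.39 at D3 (adjusted p = 0.914), -0.18 ± 0.39 at D7 (adjusted p = 0.800) and -0.19 ± 0.39 in Chronic (adjusted p = 0.797).

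Slc17a7, the transporter that fills vesicles with glutamate in most hippocampal excitatory neurons, read 31.3, 29.9, 41.6, 36.2 and 33.7 at D3, 35.4, 47.9, 28.1, 39.3 and 33.2 at D7, 26.2, 32.5, 43.5, 44.2 and 36.3 in Chronic, against 53.6, 60.9 and 56.4 in Control. All pilocarpine arrays were below Control. The log2 fold change was -0.73 ± 0.17 at D3 (adjusted p = 0.00478), -0.65 ± 0.17 at D7 (adjusted p = 0.0138) and -0.67 ± 0.17 in Chronic (adjusted p = 0.0146), and the falls at D7 and in Chronic were lost without Control replicate 36 (adjusted p up to 0.0662 and 0.0709). Slc17a6, the second glutamate transporter of vesicles, read 4.41, 5.11, 3.59, 4.11 and 5.02 at D3, 3.85, 3.18, 2.08 and 6.04 at D7, 15.5, 6.32, 3.38, 2.68 and 5.50 in Chronic, against 6.29, 6.91 and 5.87 in Control, with D7 replicate 35 removed by its flag. All D3 arrays lay below Control, the highest D7 array lay above the lowest Control array, and Chronic replicate 41 lay above every other array. The log2 fold change of Slc17a6 was -0.53 ± 0.40 at D3 (adjusted p = 0.382), -0.85 ± 0.41 at D7 (adjusted p = 0.165) and -0.21 ± 0.40 in Chronic (adjusted p = 0.773), with no test passed.

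Amph, amphiphysin, which bends membrane and recruits dynamin as vesicles are taken back, read 10.7, 10.7, 11.1, 10.8 and 11.9 at D3, 10.5, 12.5, 6.10 and 12.2 at D7, 9.72, 10.5, 11.8, 10.8 and 8.98 in Chronic, against 14.3, 17.7 and 16.3 in Control, with D7 replicate 35 removed by its flag. No pilocarpine array reached the Control arrays. Against Control the log2 fold change was -0.54 ± 0.17 at D3 (adjusted p = 0.0309), -0.69 ± 0.18 at D7 (adjusted p = 0.0142) and -0.63 ± 0.17 in Chronic (adjusted p = 0.0199). The fall was lost at D3 without D3 replicate 11, 12 or 14 or Control replicate 36 or 47 (adjusted p up to 0.133), at D7 without Control replicate 36 (adjusted p up to 0.0704), and for Chronic without Control replicate 36 or 47 (adjusted p up to 0.0976).

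For the 5 neurexins and neuroligins, the adhesion pairs across the cleft, the median log2 fold change was -0.25 (D3), -0.30 (D7) and -0.27 (Chronic), and 1 gene fell at each time (16.5%, 15.5% and 12.7% of all named genes did). Nlgn3, a neuroligin of excitatory and inhibitory synapses, read 1.32, 1.41, 1.44, 1.48 and 1.70 at D3, 1.07, 1.55, 1.25, 1.35 and 1.30 at D7, 0.941, 1.25, 1.26, 1.43 and 1.21 in Chronic, against 1.69, 2.00 and 1.55 in Control. Only the Chronic arrays were all below Control. The fit gave log2 fold changes of -0.25 ± 0.15 at D3 (adjusted p = 0.251), -0.42 ± 0.15 at D7 (adjusted p = 0.0492) and -0.53 ± 0.15 in Chronic (adjusted p = 0.0216). In Chronic the fall was lost without Chronic replicate 41 or Control replicate 26 or 36 (adjusted p up to 0.128), and at D7 it held only 3 times of 18, when D7 replicate 32 or Chronic replicate 41 or 44 was the array left out (adjusted p up to 0.229 otherwise). Nlgn1, of excitatory synapses, fell at D3 with a log2 fold change of -0.49 ± 0.14 at D3 (adjusted p = 0.0151), lost without Control replicate 47 (adjusted p up to 0.0597). Nlgn2, of inhibitory synapses, had log2 fold changes of -0.16 ± 0.09 at D3 (adjusted p = 0.221), -0.09 ± 0.09 at D7 (adjusted p = 0.516) and -0.20 ± 0.09 in Chronic (adjusted p = 0.129). A dimmer Nlgn2 probe, singled out after its values were seen, lay below Control on every pilocarpine array. It spanned 2.18 to 3.99 at D3, 2.10 to 3.65 at D7, 2.35 to 3.52 in Chronic and 4.17 to 4.61 in Control. A further Nlgn2 probe was flagged low on every array. Nrxn2 and Nrxn3, presynaptic partners of the neuroligins, passed no test, with log2 fold changes from -0.30 to -0.04 over the 3 comparisons.

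Dlg3, a guanylate kinase scaffold that carries NMDA receptors, was the one gene called lower. It read 2.42, 2.74, 2.97 and 3.01 at D3, 4.05, 5.52, 3.24, 7.12 and 5.27 at D7, 3.42, 5.33, 5.50, 5.29 and 4.55 in Chronic, against 6.31, 5.79 and 5.12 in Control, with D3 replicate 13 removed by its flag. At D3 all 4 arrays lay below every Control array, whereas D7 and Chronic arrays overlapped with Control. This came to log2 fold changes of -1.04 ± 0.21 at D3 (adjusted p = 0.00188), -0.23 ± 0.20 at D7 (adjusted p = 0.451) and -0.27 ± 0.20 in Chronic (adjusted p = 0.405), or 2.06-fold lower at D3. It was under 2-fold without D3 replicate 11 (-0.98) or Control replicate 26 (-0.97), with quantile normalization (-0.96), with scaling at percentile 75 (-0.99) and as the mean of its probes (-0.69), and passed the adjusted p each time. Dlg3 was higher at D7 than at D3 by 0.81 ± 0.18 (adjusted p = 0.0407) and higher in Chronic than at D3 by 0.77 ± 0.18 (adjusted p = 0.0275). The difference between D7 and D3 was lost without D3 replicate 11, 12, 14 or 15, D7 replicate 32, 34 or 35, Chronic replicate 42 or Control replicate 26, 36 or 47 (adjusted p up to 0.115), and that between Chronic and D3 without D3 replicate 11, 12 or 14 or Chronic replicate 42, 43 or 44 (adjusted p up to 0.0823).

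A second, dimmer Dlg3 probe with the same RefSeq accession read 0.744, 1.09, 1.25 and 1.12 at D3, 1.02, 1.26, 0.714, 1.35 and 0.992 at D7, 1.05, 0.995, 1.25, 1.29 and 1.15 in Chronic, against 1.30, 1.54 and 1.31 in Control, with D3 replicate 15 removed by its flag. All its D3 arrays were again below Control, but by less: its log2 fold changes of -0.42 ± 0.20 (adjusted p = 0.154), -0.40 ± 0.19 (adjusted p = 0.161) and -0.27 ± 0.19 (adjusted p = 0.382) at D3, D7 and in Chronic passed no test. Between D7 and D3 this probe differed by 0.02 ± 0.18 (adjusted p = 0.985), so the difference between D7 and D3 was seen on 1 of the 2 probes.

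Dlg1, a relative that sorts AMPA receptors, read 7.58, 7.55, 7.51, 6.71 and 6.82 at D3, 7.73, 7.57, 6.40, 7.04 and 7.91 at D7, 7.85, 9.10, 8.19, 7.49 and 7.41 in Chronic, against 9.63, 10.2 and 9.51 in Control. The arrays of each group were close together and all pilocarpine arrays lay below Control. Relative to Control, log2 fold changes were -0.43 ± 0.09 at D3 (adjusted p = 0.00297), -0.42 ± 0.09 at D7 (adjusted p = 0.00630) and -0.29 ± 0.09 in Chronic (adjusted p = 0.0443). The falls at D3 and D7 passed with any array left out, and that in Chronic held only 5 times of 18, when D7 replicate 31, 33, 34 or 35 or Chronic replicate 42 was the array left out (adjusted p up to 0.162 otherwise). Dlg4, the most abundant scaffold of the postsynaptic density, fell at D3 with log2 fold changes of -0.64 ± 0.22 at D3 (adjusted p = 0.0421), -0.51 ± 0.23 at D7 (adjusted p = 0.129) and -0.38 ± 0.22 in Chronic (adjusted p = 0.266), and this was lost without D3 replicate 11, 12, 14 or 15 or Control replicate 26, 36 or 47 (adjusted p up to 0.135).

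The 3 Shank genes, which encode the deep layer of the postsynaptic density, fell at all 3 times. Shank3 read 14.6, 11.6, 16.6, 14.9 and 14.7 at D3, 17.0, 20.0, 13.8, 19.6 and 17.6 at D7, 17.0, 17.8, 22.4, 21.5 and 21.2 in Chronic, against 27.1, 28.9 and 26.5 in Control. No pilocarpine array reached the Control arrays, and D3 arrays were the lowest on the whole. The log2 fold change was -0.93 ± 0.13 at D3 (adjusted p = 9.4e-05), -0.65 ± 0.13 at D7 (adjusted p = 0.00311) and -0.47 ± 0.13 in Chronic (adjusted p = 0.0226), or 1.91-fold, 1.57-fold and 1.38-fold lower. It was lost in Chronic without Chronic replicate 41 or Control replicate 26 or 36 (adjusted p up to 0.0958). Shank3 was higher in Chronic than at D3 by 0.46 ± 0.11 (adjusted p = 0.0311), a difference that was lost without D3 replicate 11, 12, 14 or 15 or Chronic replicate 43, 44 or 45 (adjusted p up to 0.105).

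Shank1 read 2.63, 2.87, 2.70, 2.53 and 2.28 at D3, 2.63, 2.63, 2.47, 3.70 and 3.04 at D7, 2.50, 3.10, 3.40, 3.15 and 3.24 in Chronic, against 4.97, 4.61 and 4.41 in Control. Here too no array crossed, and the log2 fold changes of -0.84 ± 0.13 at D3 (adjusted p = 0.000209), -0.70 ± 0.13 at D7 (adjusted p = 0.00175) and -0.60 ± 0.13 in Chronic (adjusted p = 0.00572) passed with any array left out. Shank2 read 11.2, 9.50, 12.2, 12.2 and 9.80 at D3, 15, 14.9, 10.2, 16.5 and 14 at D7, 10.6, 13.4, 14.2, 14.7 and 12.2 in Chronic, against 19.6, 18.6 and 19.8 in Control. Its pilocarpine arrays did not overlap with Control, with D7 replicate 33 the lowest D7 array, and its log2 fold change was -0.82 ± 0.14 at D3 (adjusted p = 0.000492), -0.47 ± 0.14 at D7 (adjusted p = 0.0258) and -0.58 ± 0.14 in Chronic (adjusted p = 0.0110). The fall of Shank2 at D7 was lost without D7 replicate 33 or Control replicate 26, 36 or 47 (adjusted p up to 0.0854). Shank1 and Shank2 differed between Chronic and D3 by 0.24 ± 0.11 (adjusted p = 0.290) and 0.24 ± 0.12 (adjusted p = 0.324), which did not pass the test.

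Homer2, an adaptor between Shank and metabotropic glutamate receptors, read 1.10, 1.23, 1.20, 1.0 and 1.34 at D3, 1.13, 1.45, 0.946, 1.53 and 0.988 at D7, 0.871, 1.17, 1.03, 1.28 and 0.840 in Chronic, against 1.83, 2.04 and 1.61 in Control. Its pilocarpine arrays all lay below Control, and the log2 fold change was -0.64 ± 0.18 at D3 (adjusted p = 0.0143), -0.62 ± 0.18 at D7 (adjusted p = 0.0220) and -0.83 ± 0.18 in Chronic (adjusted p = 0.00570). The fall in Chronic passed with any array left out, while that at D3 was lost without Control replicate 26 or 36 (adjusted p up to 0.0793) and that at D7 without D7 replicate 33 or Control replicate 26 or 36 (adjusted p up to 0.108). Dlgap1, the link between Dlg4 and Shank, had log2 fold changes of -0.54 ± 0.23 at D3 (adjusted p = 0.107), -0.49 ± 0.23 at D7 (adjusted p = 0.157) and -0.35 ± 0.23 in Chronic (adjusted p = 0.345). Homer1 had log2 fold changes of -0.48 ± 0.18 at D3 (adjusted p = 0.0565), -0.40 ± 0.18 at D7 (adjusted p = 0.119) and -0.20 ± 0.18 in Chronic (adjusted p = 0.492). Gphn, gephyrin, the scaffold of inhibitory synapses, read 5.66, 6.35, 7.04, 6.12 and 5.96 at D3, 6.22, 6.26, 4.69, 5.28 and 5.46 at D7, 6.68, 6.0, 6.62, 5.68 and 7.11 in Chronic, against 6.70, 7.88 and 6.45 in Control. At D7 its arrays lay below Control, with overlap at D3 and in Chronic. Against Control the log2 fold change was -0.17 ± 0.11 at D3 (adjusted p = 0.315), -0.33 ± 0.11 at D7 (adjusted p = 0.0473) and -0.13 ± 0.11 in Chronic (adjusted p = 0.498), and the fall at D7 held only 6 times of 18, when D3 replicate 13, D7 replicate 31 or 32 or Chronic replicate 41, 44 or 45 was the array left out (adjusted p up to 0.236 otherwise). A dimmer Gphn probe, singled out after its values were seen, differed from this. It spanned 1.20 to 1.40 at D3, 1.17 to 1.38 at D7, 1.31 to 1.62 in Chronic and 1.64 to 1.90 in Control. D7 replicate 33 was removed by its flag, and all other pilocarpine arrays of that probe lay below Control.

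Homer1 has a long scaffold form and a short form that is induced by activity and lacks the tail that links it to other Homer proteins. A dimmer probe to an expressed sequence tag, named Homer1 by the platform and singled out after its values were seen, read 0.410, 0.546, 1.71, 1.98 and 0.816 at D3, 3.96, 0.878, 0.850, 1.95 and 1.04 at D7, 3.56, 1.80, 0.561, 5.30 and 9.85 in Chronic, against 1.69, 1.31 and 0.728 in Control. It varied over a wide range within Chronic, with replicate 45 the highest and replicate 43 the lowest. The fit gave log2 fold changes of -0.37 ± 0.71 (adjusted p = 0.767), 0.29 ± 0.71 (adjusted p = 0.825) and 1.28 ± 0.71 (adjusted p = 0.248) at D3, D7 and in Chronic, and the form it detects was not assigned here. Over all 66 probes of the set, the falls numbered 34 at D3, 29 at D7 and 26 for Chronic, and none rose. Of 21 genes with more than 1 probe, all probes were below 0 for 19 genes at D3, 15 at D7 and 17 in Chronic.

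**Figure D3:**
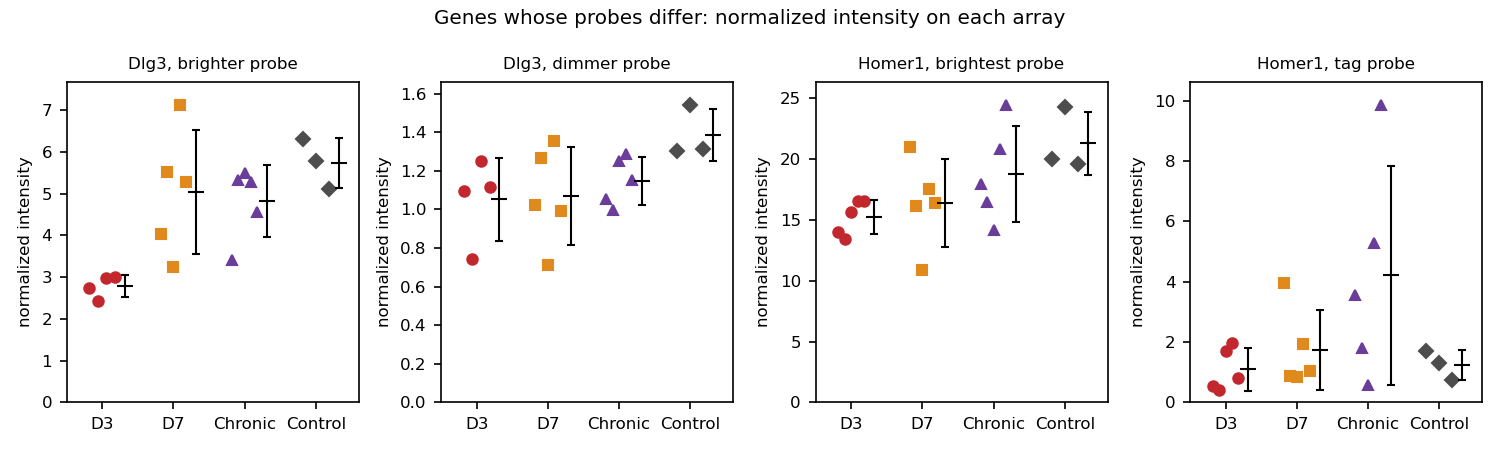
Normalized intensity (y axis, from 0) on each array for 2 probes each of Dlg3 and Homer1, with the group mean and SD. Both Dlg3 probes lie below Control on every D3 array shown, the brighter one by more. The brighter Dlg3 probe overlaps with Control at D7 and in Chronic, and the second Homer1 probe spreads widely in Chronic.

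Between the pilocarpine groups the set changed little. Relative to D3, 1 gene rose at D7 (0.257% of all probes) and 2 rose in Chronic (0.808% of all probes), Dlg3 in both and Shank3 in Chronic, and none fell (0.627% and 1.92% of all probes). None of these was called, where 0.0947% and 0.195% of all probes were called higher and 0.228% and 0.547% lower. At an unadjusted p under 0.05 these counts were 4 and 6 higher and 1 and 2 lower, and the methods' t-test gave none after adjustment. Between Chronic and D7 no gene passed in either direction (0.0976% of all probes rose and 0.0799% fell, with 0.0207% and 0.0296% called), with 1 higher and none lower at an unadjusted p under 0.05 and none by the methods' t-test after adjustment. These comparisons share arrays with each other.

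Beyond the set, 2 lists of other genes of the same machinery were counted. Of 46 further presynaptic genes tested (54 listed), 18 fell at D3, 18 at D7 and 17 in the Chronic group, with median log2 fold changes of -0.46, -0.42 and -0.42. Of all named genes, 16.5%, 15.5% and 12.7% fell at these times. Among probes at least as bright as the lower quartile of the set, 28.6%, 26.5% and 22.7% fell. Lin7b, which links adhesion proteins and channels to the presynaptic scaffold, read 4.80, 3.98, 5.87, 4.91 and 4.89 at D3, 5.06, 7.75, 5.07, 8.40 and 6.58 at D7, 6.14, 8.47, 8.12, 7.59 and 6.53 in Chronic, against 11.6, 13.8 and 10.9 in Control. Its arrays did not overlap with Control, and the log2 fold change of -1.31 ± 0.17 at D3 (adjusted p = 3.68e-05), -0.91 ± 0.17 at D7 (adjusted p = 0.00166) and -0.72 ± 0.17 in Chronic (adjusted p = 0.00858) was the lowest of both lists at D3. Sh3gl2, endophilin, which shapes endocytic vesicles, had log2 fold changes of -0.70 ± 0.18 at D3 (adjusted p = 0.00934), -1.07 ± 0.18 at D7 (adjusted p = 0.000988) and -0.87 ± 0.18 in Chronic (adjusted p = 0.00468). It was called at D7, and was under 2-fold without D7 replicate 33 (-0.92).

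Rims3 was called lower at D3 (log2 fold change -1.04 ± 0.30 at D3 (adjusted p = 0.0170)), and lost the call without D3 replicate 14 or Control replicate 26 or 47 (adjusted p up to 0.0704, log2 fold change as small as -0.79). Rph3a, rabphilin, an effector of Rab3a, was called lower at D7 (-1.05 ± 0.27 at D7 (adjusted p = 0.0138)) and lost the call without D7 replicate 31 or Control replicate 36 (adjusted p up to 0.0828). Rab27b, a vesicle GTPase, was called higher at D3 (adjusted p = 0.0163). All 3 Control spots of Rab27b were flagged low, so the difference was at least 1.38-fold, with 3 of 5 D3 spots flagged good, and the call was lost without Control replicate 47 (adjusted p = 0.123). Erc2, of the active zone, was called higher in Chronic (adjusted p = 0.0466), also with all Control spots flagged low (at least 1.17-fold), and lost the call without D3 replicate 11 or 14, D7 replicate 31 or 35, Chronic replicate 41, 42, 43, 44 or 45 or Control replicate 36 or 47 (adjusted p up to 0.259).

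Of 29 further postsynaptic genes tested (42 listed), 13 fell at D3, 11 at D7 and 9 in the Chronic group, with median log2 fold changes of -0.54, -0.47 and -0.32, and 1 rose, Lrfn5 at D7 (0.65 ± 0.22 at D7 (adjusted p = 0.0475)). The shares of all named genes that fell were 16.5%, 15.5% and 12.7%, and 8.04% rose at D7. Mpp2, a guanylate kinase scaffold, read 7.45, 7.74, 8.39, 7.76 and 7.93 at D3, 7.54, 8.71, 6.82, 10.7 and 11.1 at D7, 6.90, 8.54, 10.3, 8.85 and 6.26 in Chronic, against 17.8, 16.6 and 15.3 in Control. No pilocarpine array reached the Control arrays, and the log2 fold changes were -1.07 ± 0.16 at D3 (adjusted p = 0.000150), -0.90 ± 0.16 at D7 (adjusted p = 0.00125) and -1.04 ± 0.16 in Chronic (adjusted p = 0.000685). Mpp2 was called at D3 with any array left out, and in Chronic it was under 2-fold without Chronic replicate 41 or 45 or Control replicate 26 (-0.95 at the smallest). Grip2, an adaptor of AMPA receptors, had log2 fold changes of -1.15 ± 0.18 at D3 (adjusted p = 0.000226), -0.76 ± 0.18 at D7 (adjusted p = 0.00819) and -0.66 ± 0.18 in Chronic (adjusted p = 0.0197) and kept its call at D3 with any array left out. Camk2a, the kinase most abundant in the postsynaptic density, was called at D3 alone, with log2 fold changes of -1.14 ± 0.29 at D3 (adjusted p = 0.00800), -0.47 ± 0.30 at D7 (adjusted p = 0.292) and -0.21 ± 0.29 in Chronic (adjusted p = 0.681), and was under 2-fold without D3 replicate 12 (-0.89).

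Some of these calls also depended on the scaling and on the Control arrays. Lin7b and Grip2 at D3 kept their calls with quantile normalization, with scaling at percentile 75 and with the time-matched Control array. Mpp2 kept its call at D3 in the last 2 of these and was under 2-fold with quantile normalization (-0.88), and in Chronic it was under 2-fold with quantile normalization (-0.82), with scaling at percentile 75 (-0.93) and with the time-matched array (-0.92, adjusted p = 0.131). Camk2a lost its call with quantile normalization (-0.86) and with the time-matched array (adjusted p = 0.122). Sh3gl2, Rims3 and Rph3a were under 2-fold with quantile normalization (-0.98, -0.99 and -0.99) and with scaling at percentile 75 (-0.96, -0.99 and -0.93), and did not pass with the time-matched array (adjusted p = 0.0632, 0.153 and 0.0780). Of the genes called higher, Rab27b did not pass with the time-matched array (adjusted p = 0.144), nor did Erc2 with that array (adjusted p = 0.194) or with quantile normalization (adjusted p = 0.128).

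Averaged over the 41 genes, the log2 value of an array minus the Control mean was between -0.62 and -0.40 at D3, between -0.92 and -0.26 at D7 and between -0.64 and -0.33 in Chronic, against -0.07 to 0.09 in Control. For 19 neuron markers it was -0.61 to -0.39, -0.92 to -0.27 and -0.55 to -0.20, against -0.08 to 0.09 in Control, and 12, 11 and 10 of the 19 fell, while 1, Npy, rose, with a log2 fold change of 1.40 ± 0.48 at D3 (adjusted p = 0.0421). In bulk tissue, fewer neurons and less RNA of a gene per neuron cannot be told apart. Of 10 microglia and macrophage markers, all 10 rose at D3 and at D7 and 9 did in Chronic, with array means of 1.86 to 2.11, 1.05 to 2.89 and 1.34 to 2.13, against -0.19 to 0.34 in Control. Among 9 astrocyte markers, 5, 3 and 2 rose, Gfap and Vim at least 2-fold each time, and 1 fell at D3. Of 9 oligodendrocyte markers 1 rose at D3 and 1 fell at each time. Of 5 endothelial markers 1 rose at D3 and 1 fell at each time. For 7 choroid plexus and ependyma markers the array means were spread widely, with -1.57 to 1.82 among D3 arrays, -1.39 to 2.43 among D7 arrays and -1.16 to 2.41 among Chronic arrays, against -1.11 to 1.33 in Control. None of the 7 rose, and 1, Ttr, fell, with a log2 fold change of -4.13 ± 1.34 at D7 (adjusted p = 0.0451) over the 3 of 5 D7 arrays not removed by flag. Of all named genes, 16.5%, 15.5% and 12.7% fell and 11.8%, 8.04% and 6.28% rose at D3, D7 and in Chronic. The part of any of these cell types in the falls was not tested.

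**Figure D4:**
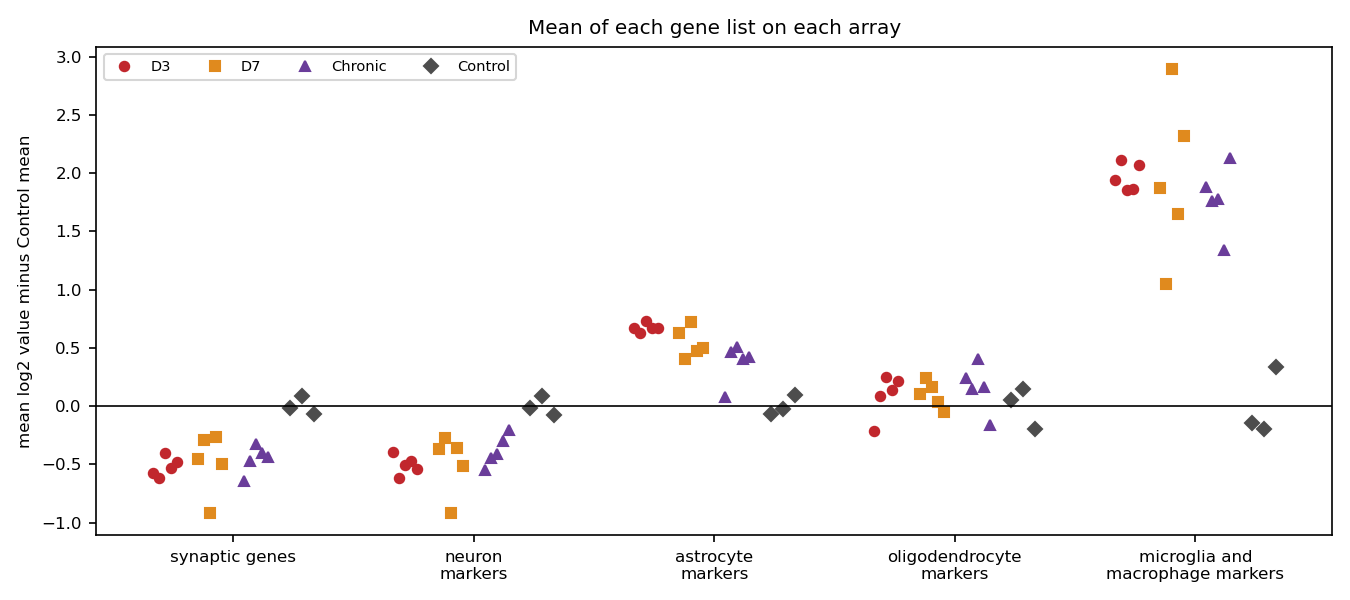
Mean log2 value of each array minus the Control mean (y axis) for the 41 synaptic genes and for 4 marker lists, with 1 point per array of D3, D7, Chronic and Control. Synaptic genes and neuron markers are below 0 on every pilocarpine array, lowest on D7 replicate 33, while microglia and macrophage markers are above 1 on each.

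The counts depend on the Control arrays and on the scaling. Leaving out 1 array gave counts of fallen genes between 18 and 26 at D3, between 10 and 24 at D7 and between 8 and 22 in Chronic. The share of all probes that fell moved as well, from 8.14% to 16.3%, from 4.49% to 13.8% and from 3.39% to 12.6%. At D7 the count was 10 without Control replicate 36 (4.49% of all probes) and 13 without D7 replicate 33 (7.7%). In Chronic it was 8 without Control replicate 36 (3.39% of all probes), 10 without Control replicate 26 (3.83%) and 13 without Chronic replicate 41 (6.35%). With any array left out, 16 of the genes passed at D3, 9 at D7 and 8 in the Chronic group. How many of all probes did so was not counted. At most 8.14%, 4.49% and 3.39% of them could, the lowest shares given above. With quantile normalization 15, 7 and 6 genes fell (8.63%, 4.59% and 3.74% of all probes), among them Syn1, Sv2b, Cplx1 and Shank1 at each time. With the lone Control array of each time as its reference, 6 fell at D3 (Syt4, Cplx1, Dlg3, Shank1, Shank2 and Shank3), 3 at D7 (Sv2b, Syt4 and Cplx1) and 0 in Chronic, against 1.72%, 0.509% and 0.0503% of all probes, with 1 array standing for Control.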

How the data were processed

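Hippocampal total RNA was measured on 18 CodeLink arrays. The authors scanned them on a GenePix scanner and made the deposited normalized intensity values with the CodeLink Expression Analysis software, on a linear scale, as spot minus local background divided by 1 constant per array. The deposited intensities involve no alignment, and start regions are given on GRCr8. Spots flagged good or low were kept (0.699% of spots removed), raised to a floor at percentile 1 of the positive values, and log2-transformed from the deposited intensities. A probe was tested with 3 or more values for each of D3, D7 and Chronic and 2 or more for Control. Names came from the platform annotation or the RefSeq accession, updated to GRCr8, through value table lines matched to spots on all 18 arrays (33970 of 33993 lines). Groups came from the labels. A single limma model (version 3.58.1, R 4.3.3) held all 4 groups (eBayes with trend), checked on simulated data, with Benjamini-Hochberg adjustment over all probes. The median residual SD was 0.291 on the log2 scale. The number of arrays limits the precision.

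All 46 genes of the set are named. Values of every array are given for genes called in any comparison, for those past the adjusted p of 0.05 in all 3 comparisons with Control, and for the gene with the largest change in each role. From the 2 lists of other synaptic genes, called genes are named, at most 6 per list. Lists of neuron, astrocyte, microglia, oligodendrocyte, endothelial and choroid plexus markers were also used. The members and lists were chosen with earlier results of these data known. Nothing in the labels names separate extractions, so p-values measure the spread between these samples. Alternatives changed the scaling, floor, flags, probe rule, Control arrays, variance model, test and arrays included.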

Additional observations from a re-analysis of the deposited data

Results flagged for a closer look

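Far arrays were sought in groups of 4 or 5 arrays for the genes given array by array and for the mean of the set. In 5 of the 69 groups examined, the lowest or highest array stood further from the others than Dixon's limit, which chance does in about 1 in 20 groups. On the log2 scale, D7 replicate 33 was low for Sv2b (4.25), Syt4 (4.27) and Stx1a (3.36), D3 replicate 14 was high for Syt4 (4.89) and D3 replicate 15 was low for Napb (5.56). The gap to the nearest array was 0.733, 0.716, 0.760, 0.735 and 0.754 of the range of the group.

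Between the pilocarpine groups, 3 differences passed the test of limma. Dlg3 was higher at D7 than at D3 by 0.81 on the log2 scale (adjusted p = 0.0407) and higher in Chronic than at D3 by 0.77 (adjusted p = 0.0275). Shank3 was higher in Chronic than at D3 by 0.46 (adjusted p = 0.0311).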

How the results depend on the processing

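Under every alternative, no gene of the set rose against Control at an adjusted p under 0.05. The counts that fell at D3, D7 and in Chronic, 25, 21 and 20 as reported, were 15, 7 and 6 with quantile normalization and 6, 3 and 0 with the time-matched Control array alone. With only the 2 groups compared, 12 fell at D7 (5.18% of all probes). The methods' t-test, after adjustment, gave 1 at D7, 6 in Chronic and 28 at D3 (0.763%, 3.23% and 17% of all probes). With 1 array left out, the counts lay between 18 and 26 at D3, between 10 and 24 at D7 and between 8 and 22 in Chronic. Of all probes, 8.14% to 16.3%, 4.49% to 13.8% and 3.39% to 12.6% fell. The count called lower at D3, 1 as reported, was 0 with quantile normalization, with scaling at percentile 75 and with the mean of all probes of a gene, and ranged from 0 to 1 with 1 array left out. Scaling at percentile 75 raised the median of all probes by 0.11 at D7 and in Chronic, with 14 genes fallen at each (6.02% and 5.19% of all probes). The log2 fold change in Chronic changed sign for Slc17a6 without Chronic replicate 44 (0.043, and as low as -0.59 with another array left out) and for Gphn with quantile normalization (0.042), and neither had passed. The cause of these changes was not tested. No paired analysis was possible because each group has replicate numbers of its own. Background correction by normexp and a slide or scan block were not run, since the files used hold no separate foreground and background signals and name no slide or scan. Dim probes such as Snap25, Pclo and Syt2 limit what can be said of those genes.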
